A study of Homo sapiens with 15 samples.

Results

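Gene expression in LNCaP cells that carried a hairpin against G9a (shG9a, 3 libraries) was set against that in LNCaP cells that carried a hairpin against SUZ12 (shsuz12, 3 libraries). These are 6 of the 15 RNA-sequencing libraries of the series. A gene entered the comparison when it had at least 1 RPKM (reads scaled to gene length and library depth) in at least 3 of these 6 libraries, which 12111 of the 26443 genes with values did, or 45.8%. LNCaP is an established, androgen-sensitive line from a human prostate cancer with luminal features. The hairpins were delivered by lentivirus and cells were taken 4 to 5 days after infection, without a record of which group was taken on which day. The empty vector pLKO (3 libraries) served as the control that both knockdowns share, and the shPALI1 and shJarid2 groups (3 libraries each) entered the model only to estimate the spread. The labels name a single hairpin per target, whose sequence is not given in the sources used here, so an effect of the hairpin and an effect of losing its target cannot be told apart. Whether replicates were grown as separate cultures is not stated, so each p rests on library-to-library spread that may be technical only.

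G9a, the product of EHMT2, is a histone methyltransferase that places mono- and dimethyl marks on lysine 9 of histone H3, mostly with its partner GLP (EHMT1). SUZ12 is a core subunit of Polycomb repressive complex 2 (PRC2), in which EZH2 places methyl marks on lysine 27 of histone H3, and without SUZ12 the complex is unstable. Both marks are found at silent genes, on largely separate sets of regions. Setting the knockdowns against each other shows where the cells differed when a different histone methyltransferase pathway was targeted in a like way, with no use of the pLKO libraries in the difference itself.

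Depth, worked out from the RPKM step of a single read in short RNA genes, was 13.6 to 15.2 M reads in shG9a and 12.04 to 19.4 M in shsuz12. For a 2 kb gene, 1 RPKM then came to 27.2 to 30.4 reads in shG9a libraries and to 24.1 to 38.7 in shsuz12 libraries. Replicates correlated across genes at r between 0.995 and 0.996 in shG9a and at 0.995 in shsuz12, a description over genes, which are not independent replicates. The 10 luminal prostate markers were all present in each group, with summed levels of 1080 to 1150 RPKM in shG9a, 1420 to 1530 in shsuz12 and 2150 to 2380 in pLKO. KRT5 and TP63, which define basal cells, were listed at 0 in all libraries of these 3 groups.

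The cells differed at a large share of their genes, mostly by modest amounts. With limma on log2(RPKM + 1) and Benjamini-Hochberg adjusted p under 0.05, 3247 genes were higher in shG9a than in shsuz12 (26.8% of those tested) and 2505 were lower (20.7%), 47.5% in all. A difference of at least 2-fold was reached by 262 genes that were higher (2.16%) and 251 that were lower (2.07%), and the median over all genes was 0.044 on the log2 scale. The 3 libraries of each group did not overlap for 7725 genes (63.8%). Of the 12111 genes, 119 passed the filter through the shG9a libraries alone, and 112 of these were called higher and 0 lower; 186 passed through the shsuz12 libraries alone, with 168 called lower and 0 higher, as the filter favours. The added 1 makes differences smaller than the RPKM ratios would give, most of all at low levels.

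**Figure D1:**
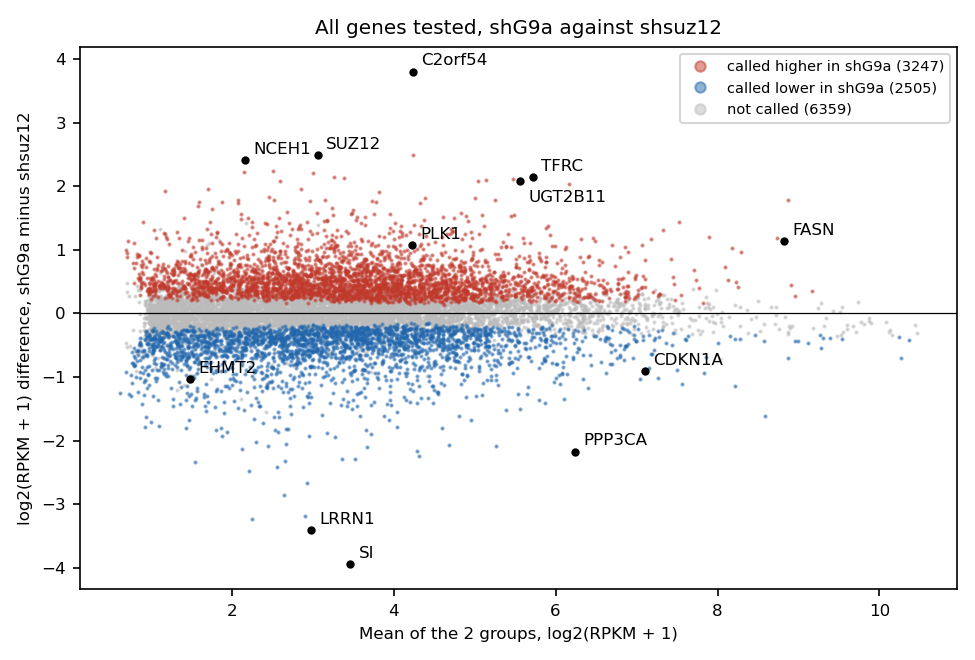
Each point is 1 of 12111 genes; the x axis is the mean level of shG9a and shsuz12 in log2(RPKM + 1), and the y axis the difference shG9a minus shsuz12 on the same scale, with called genes coloured. C2orf54 stands at 3.8 and SI at -3.95, the ends of the range, while most called genes lie within 1 unit of 0.

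Against pLKO, 2344 genes were higher (19.4%) and 3030 lower (25%) in shG9a, and 2666 were higher (22%) and 4033 lower (33.3%) in shsuz12. At least 2-fold, 192 were higher (1.59%) and 217 lower (1.79%) in shG9a, and 272 higher (2.25%) and 391 lower (3.23%) in shsuz12. The medians over all genes were -0.035 for shG9a and -0.075 for shsuz12. Because these comparisons use the same pLKO libraries, their values are given side by side below only to show in which cells a gene moved.

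Each targeted gene was at its lowest in its own knockdown. EHMT2, which lies on chromosome 6 (31879759 to 31897687, minus strand, GRCh38), had 0.939, 0.939 and 0.988 RPKM in shG9a, 3, 2.92 and 3.04 in shsuz12, and 4.17, 3.51 and 3.48 in pLKO. The shG9a libraries therefore held 32% of the shsuz12 mean and 25.7% of the pLKO mean, with no overlap, and the log2 difference from shsuz12 was -1.03 ± 0.08 (SE, adjusted p = 8.8e-08). EHMT2 passed the filter through the shsuz12 libraries alone, so it could hardly have been called higher in shG9a. SUZ12, on chromosome 17 (31937018 to 32001045, plus strand), had 20.1, 17.9 and 18.6 RPKM in shG9a, 2.71, 2.59 and 2.28 in shsuz12, and 19.2, 22.6 and 18.7 in pLKO. It was 7.46 times as high in shG9a as in shsuz12 (log2 difference 2.49 ± 0.10, adjusted p = 3.5e-10), and shG9a and pLKO overlapped. EHMT2 was also lower in shsuz12 than in pLKO, at 80.3% of its mean (log2 difference -0.24, adjusted p = 0.015).

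**Figure D2:**
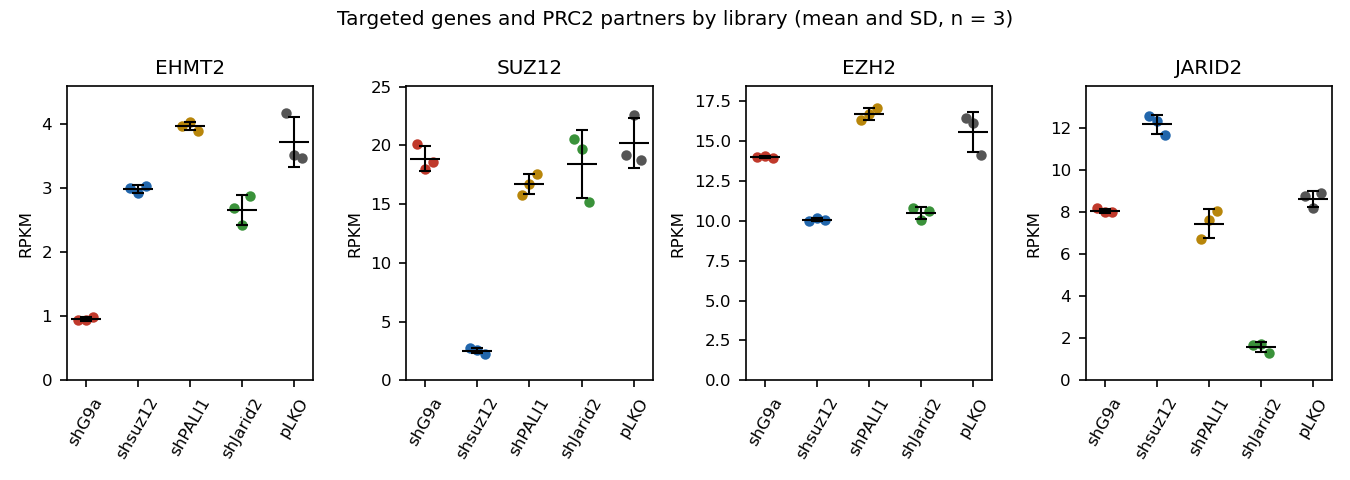
RPKM of EHMT2, SUZ12, EZH2 and JARID2 in each of the 15 libraries (points), with mean and SD of the 3 libraries per group (bars). EHMT2 is under 1 RPKM only in shG9a, SUZ12 is under 3 RPKM only in shsuz12, and EZH2 is lower in shsuz12 than in shG9a.

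Other PRC2 subunits differed as well. EZH2, the catalytic subunit of PRC2, had 14.03, 14.1 and 13.97 RPKM in shG9a and 9.99, 10.2 and 10.1 in shsuz12, against 16.5, 16.1 and 14.1 in pLKO; it was higher in shG9a by 0.44 ± 0.06 (adjusted p = 4.7e-05), and the pLKO libraries lay above shsuz12. JARID2, an accessory subunit that helps to recruit PRC2, was lower in shG9a by 0.54 on the log2 scale, with 8.18, 8.003 and 8.002 RPKM in shG9a, 12.6, 12.3 and 11.7 in shsuz12 and 8.18 to 8.90 in pLKO. LCOR, an entry of the locus that encodes the accessory protein PALI1, was likewise lower in shG9a, at 4.47, 4.09 and 4.16 RPKM, against 8.86, 7.82 and 7.67 in shsuz12 and 4.20, 5.58 and 5.67 in pLKO (log2 difference -0.80 ± 0.15, adjusted p = 0.00052). For both genes the shG9a libraries lay near or within the pLKO range and the shsuz12 libraries above it. C10orf12, the part of that locus listed under its own name, did not pass (0.51 ± 0.21, limma adjusted p = 0.054). It lay the other way with no overlap, at 5.20, 4.56 and 4.76 RPKM in shG9a and 3.66, 2.555 and 3.14 in shsuz12. With the 6 libraries alone it passed as higher in shG9a (limma adjusted p = 0.0027). The entries of this locus thus went in opposite directions, and no direction is given for PALI1. EED, the subunit that reads the mark, was lower by 0.21 (limma adjusted p = 0.024). It did not pass without shG9a replicate 3 (limma adjusted p = 0.13) or without shsuz12 replicate 1 (limma adjusted p = 0.1) or 3 (limma adjusted p = 0.051).

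Among other chromatin regulators, the Polycomb repressive complex 1 (PRC1) list had 8 of 19 members higher in shG9a (42.1%) and 1 lower (5.3%). Over all tested genes the shares were 26.8% and 20.7%. Its largest difference was CBX6, a chromodomain subunit, at 54.6, 60.1 and 56.7 RPKM in shG9a, 19.7, 18.3 and 18.96 in shsuz12 and 15.99 to 18.1 in pLKO (1.54 ± 0.06, adjusted p = 3.8e-10). The shG9a libraries lay above those of shsuz12 and pLKO. In the list of histone H3 lysine 9 methyltransferases and HP1 proteins, 5 of 15 were higher (33.3%) and 3 lower (20.0%), near the shares of all genes. EHMT2 itself was among the 3 lower. The 5 became 3 when shG9a replicate 1 or 2, or shsuz12 replicate 2 or 3, was left out. The HP1 protein CBX3 (0.42, adjusted p = 0.0003) and the methyltransferase SUV39H1 (0.52, adjusted p = 0.0009) were higher, at 79.7 and 3.95 RPKM in shG9a and 59.1 and 2.45 in shsuz12. With 99.6 and 5.54 RPKM in pLKO, both were below pLKO in each knockdown (-0.32 and -0.39 in shG9a, -0.74 and -0.91 in shsuz12). GLP (EHMT1), at 22.0 RPKM in shG9a and 19.9 in shsuz12, did not pass (adjusted p = 0.11). UHRF1, which brings DNA methyltransferase to newly copied DNA, had 4.47, 4.65 and 4.30 RPKM in shG9a and 1.68, 1.62 and 1.82 in shsuz12 (1.01 ± 0.12, adjusted p = 6.7e-06). It averaged 5.14 RPKM in pLKO, which shG9a overlapped, so it was low in shsuz12. DNMT3B, a de novo DNA methyltransferase, was lower by 0.65 (adjusted p = 0.00014), at 2.02 RPKM in shG9a, 3.73 in shsuz12 and 2.85 in pLKO.

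The genes with the largest differences upwards had 2 main patterns. C2orf54, a member of the MAB21 family, had 65.1, 72.0 and 71.0 RPKM in shG9a, 3.53, 4.15 and 4.48 in shsuz12 and 0.331, 0.257 and 0.0957 in pLKO. Both knockdowns were above pLKO, the shG9a libraries 17.1 times as high as the shsuz12 libraries on average (log2 difference 3.8 ± 0.15, adjusted p = 2.4e-10). MSMB, a secreted prostate protein that EZH2 has been reported to silence in prostate cancer, had 8.18, 9.32 and 8.19 RPKM in shG9a, 0.941, 0.749 and 1.51 in shsuz12 and 0.521 to 1.78 in pLKO (2.22 ± 0.28, adjusted p = 1.9e-05). Its shsuz12 libraries overlapped those of pLKO, so of these 3 groups it was high in shG9a. UGT2B11, described with its family below, had the same form.

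In the second pattern the gene was low in shsuz12 cells. TFRC, the transferrin receptor that takes up iron, had 107.8, 112.6 and 107.6 RPKM in shG9a, 25.3, 23.8 and 23.0 in shsuz12, and 95.3, 105.9 and 103.3 in pLKO (2.14 ± 0.09, adjusted p = 3.9e-10). KIF5B, the heavy chain of a kinesin motor, had 76.2, 71.3 and 68.9 RPKM in shG9a, 18.1, 15.5 and 14.9 in shsuz12, and 60.9 to 71.1 in pLKO (2.10 ± 0.10). In neither gene did shG9a pass against pLKO (adjusted p = 0.36 and 0.26), while shsuz12 was far below it. NCEH1, a cholesterol ester hydrolase, was split to both sides, at 9.58, 9.32 and 9.09 RPKM in shG9a and 0.898, 0.840 and 1.12 in shsuz12, with 2.51 to 2.69 in pLKO (2.41 ± 0.09). IQGAP2, a cytoskeletal scaffold, stood at 10.9, 12.2 and 11.1 RPKM in shG9a and 1.80, 1.59 and 1.51 in shsuz12, with 5.82 to 7.11 in pLKO. The transcription elongation factor ELL2 and its partner EAF1 differed alike, by 2.21 and 2.13, with means of 16.2 and 20.8 RPKM in shG9a, 2.73 and 3.99 in shsuz12, and 10.9 and 15.4 in pLKO. The remaining genes were MAT2B (a regulatory subunit of methionine adenosyltransferase, 2.15) and APIP (a methionine salvage enzyme, 2.08), the adherens junction protein CTNNA1 (2.11) and INSIG1 (2.08), with SUZ12 itself among the 14.

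The largest differences downwards were led by genes that were high in shsuz12 cells. SI, the sucrase-isomaltase of the intestinal brush border, had 1.76, 1.76 and 1.93 RPKM in shG9a, 43.0, 43.1 and 41.2 in shsuz12 and 0.848, 0.961 and 0.685 in pLKO (-3.95 ± 0.11, adjusted p = 1.8e-11). The shsuz12 libraries were 23.4 times as high as those of shG9a on average, with no overlap, which the choice of leading genes required. LRRN1, a leucine-rich repeat protein of neurons, had 1.40, 1.55 and 1.30 RPKM in shG9a, 24.3, 25.8 and 23.9 in shsuz12 and 3.83 to 4.06 in pLKO (-3.41 ± 0.10). RFX6, a transcription factor of gut and pancreatic endocrine cells, had 0.628, 0.563 and 0.458 RPKM in shG9a, 13.5, 13.0 and 14.4 in shsuz12 and 4.06 to 5.16 in pLKO (-3.24 ± 0.10). LRRN1 and RFX6 lay below pLKO in shG9a and above it in shsuz12. RFX6 was under 1 RPKM in every shG9a library and passed the filter through the shsuz12 libraries alone, so it could hardly have been called higher. F5 (coagulation factor V, -2.85), RLN1 (the hormone relaxin, -2.48) and CEL (a pancreatic lipase, -2.32) were also high in shsuz12, at 15.8, 9.90 and 13.1 RPKM, against 1.33, 0.964 and 1.83 in shG9a.

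Other genes of this group were below pLKO in shG9a. PPP3CA, the catalytic subunit of the phosphatase calcineurin, had 34.5, 34.8 and 34.5 RPKM in shG9a, 166.4, 161.8 and 151.1 in shsuz12 and 177.5, 200.4 and 169.7 in pLKO (-2.17 ± 0.08, adjusted p = 1e-10). AIDA had 4.25, 2.89 and 3.88 RPKM in shG9a, 23.0, 22.7 and 19.6 in shsuz12 and 14.6 to 18.1 in pLKO (-2.29 ± 0.11). The shG9a mean was 19% of the pLKO mean for PPP3CA and 22.5% for AIDA. ACPP, the prostatic acid phosphatase made by luminal prostate cells, had 3.85, 4.38 and 4.46 RPKM in shG9a, 23.5, 26.8 and 23.1 in shsuz12 and 11.8 to 13.1 in pLKO (-2.28 ± 0.07). ALDH1A3, which makes retinoic acid, had 8.74, 8.06 and 7.58 RPKM in shG9a, 44.3, 41.8 and 40.9 in shsuz12 and 21.2 to 24.0 in pLKO (-2.25 ± 0.08). For these 2 genes pLKO lay between the knockdowns. SOCS2 (a suppressor of cytokine signalling, -2.33), ATP11A (a phospholipid flippase, -2.17), HS3ST1 (a heparan sulfate sulfotransferase, -2.12) and ZMAT3 (a p53 target that binds RNA, -2.67) had the same order. SOCS2, with a mean of 0.302 RPKM in shG9a, passed the filter through the shsuz12 libraries alone.

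**Figure D3:**
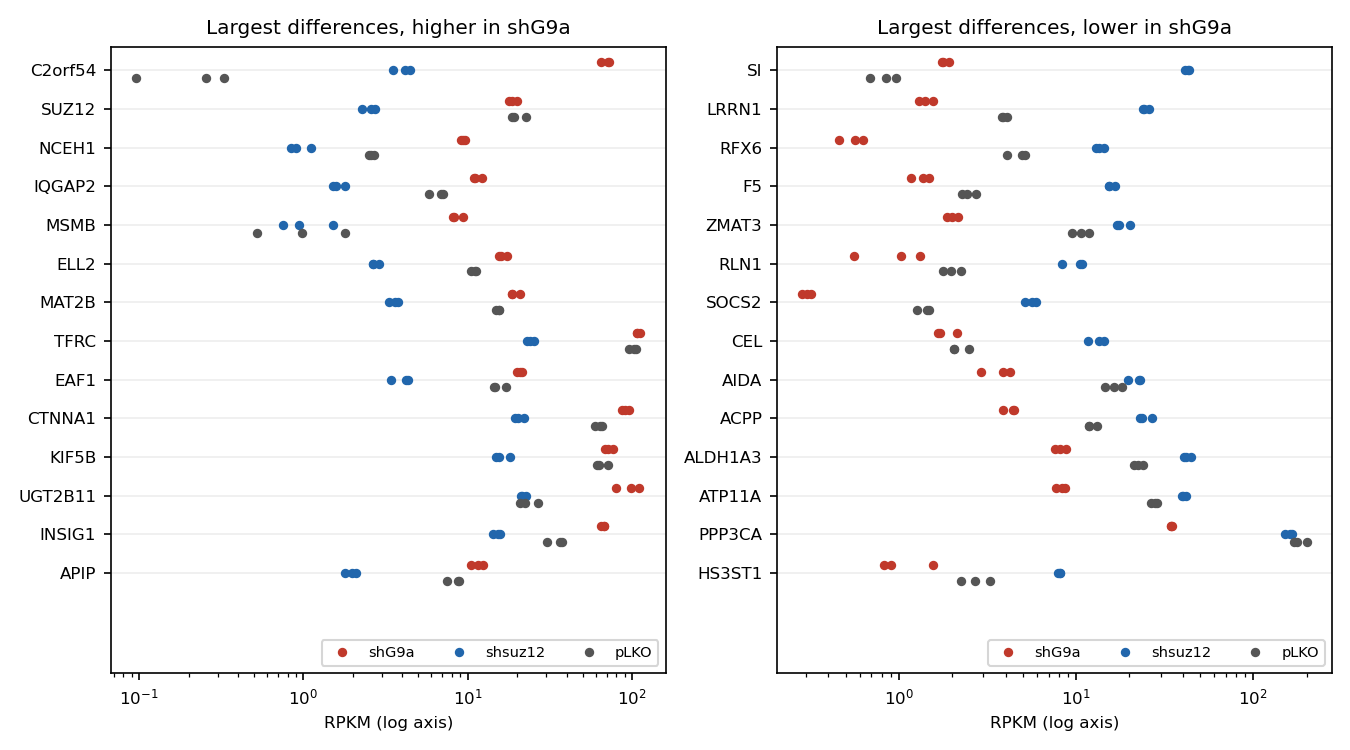
RPKM on a log axis of the 14 genes with the largest rise (left) and the 14 with the largest fall (right) in shG9a against shsuz12, with 1 point per library of shG9a, shsuz12 and pLKO. The 28 genes were chosen so that the shG9a and shsuz12 points do not overlap. pLKO lies close to shG9a for TFRC and KIF5B and close to shsuz12 for PPP3CA and UGT2B11.

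Gene lists were read by counting their tested members that were called in each direction, beside the 26.8% higher and 20.7% lower of all genes. The counts are descriptions, since the lists were chosen with results known. A few members outside the naming rule (ATF4, CCNB2, PCNA, EHMT1, GDF15, PLK3, RRM2B, UGT2B28 and UGT2B7) are named and were chosen after their values were seen.

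**Figure D4:**
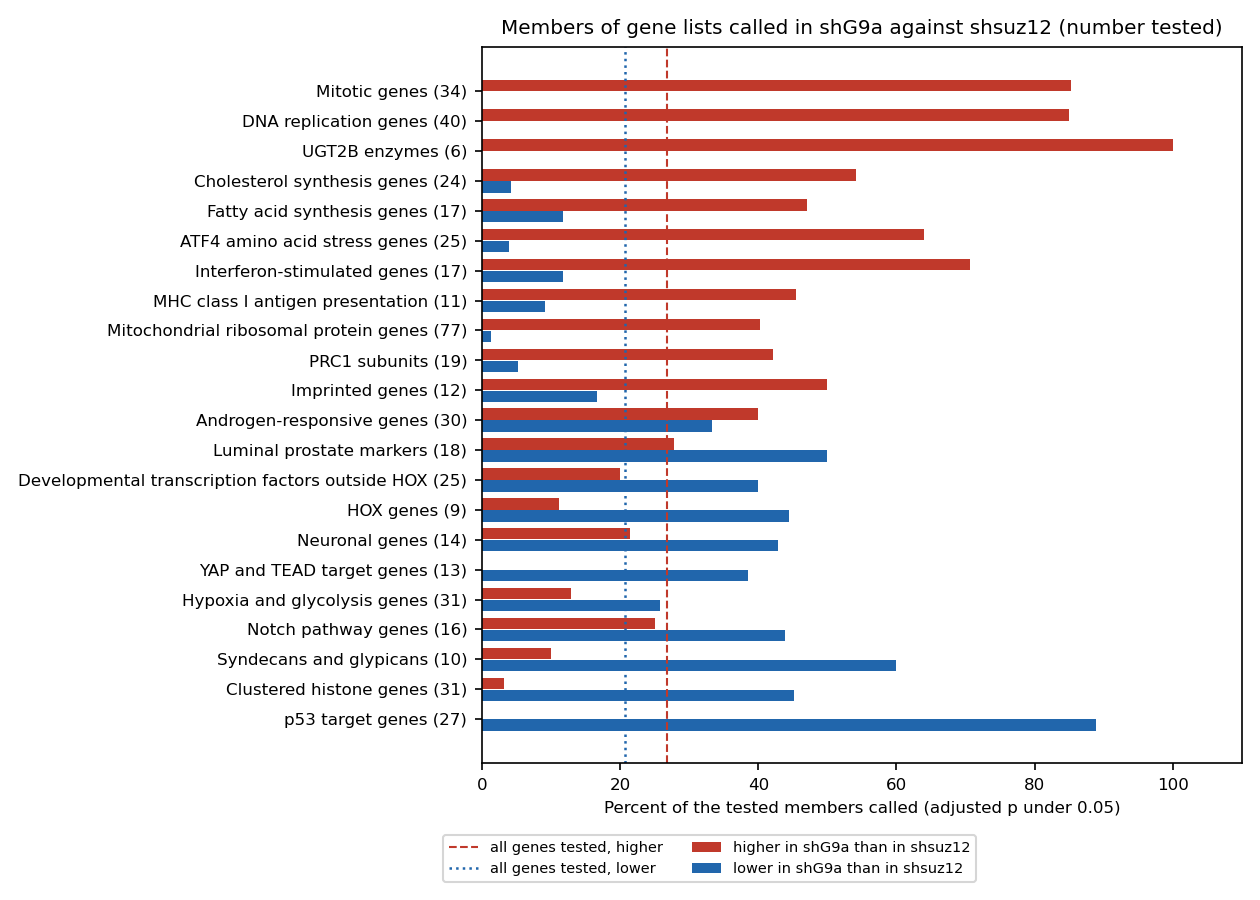
Percent of the tested members of 22 gene lists called higher (red) or lower (blue) in shG9a than in shsuz12, with the number tested in brackets and the shares over all tested genes as dashed and dotted lines. Mitotic, DNA replication and UGT2B genes stand far to the right on the higher side, with 0 lower, and p53 target genes on the lower side, with 0 higher.

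Genes of mitosis were higher in shG9a than in shsuz12, as a group. Of 34, all tested, 29 were called higher (85.3%) and 0 lower, with a median log2 difference of 0.73, against 0.044 over all genes. PLK1, a kinase that drives entry into and exit from mitosis, had 28.0, 27.5 and 23.2 RPKM in shG9a, 11.3, 12.2 and 12.01 in shsuz12 and 32.5 to 39.5 in pLKO (1.08 ± 0.08, adjusted p = 1e-07). MAD2L1, of the spindle checkpoint, had 23.7, 27.1 and 22.5 RPKM in shG9a, 9.24, 11.4 and 9.43 in shsuz12 and 33.5 to 40.7 in pLKO (1.21 ± 0.09). CCNB1, the cyclin B1 that activates CDK1, had 46.0, 48.1 and 44.0 RPKM in shG9a, 27.3, 25.7 and 24.9 in shsuz12 and 61.2 to 68.3 in pLKO (0.80 ± 0.06). All 3 genes were lowest in shsuz12 and highest in pLKO, with shG9a between and no overlap. Against pLKO the list had 29 members lower and 0 higher in shG9a (median -0.53) and 34 lower and 0 higher in shsuz12 (median -1.24). In bulk RNA fewer dividing cells and less of these mRNAs per cell cannot be told apart.

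The DNA replication list moved in the same direction. Of 40 members, 34 were higher in shG9a than in shsuz12 (85%) and 0 lower, with a median of 0.59. RRM2, the subunit of ribonucleotide reductase that limits dNTP supply, had 26.5, 26.98 and 23.1 RPKM in shG9a, 9.49, 8.57 and 8.54 in shsuz12 and 25.2 to 29.7 in pLKO (1.43 ± 0.09, adjusted p = 1.2e-08). GINS1, of the replicative helicase, had 18.0, 18.5 and 15.2 RPKM in shG9a, 6.85, 7.40 and 6.87 in shsuz12 and 13.8 to 15 in pLKO (1.18 ± 0.09). For RRM2 the shG9a libraries overlapped pLKO, and for GINS1 they lay above it, while shsuz12 was below in both. MCM4 (0.91) of the helicase and RFC3 (0.79) of the clamp loader were further examples. The list had 26 members lower and 2 higher in shG9a against pLKO, and 38 lower and 0 higher in shsuz12 against pLKO.

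The promoters of these 2 lists hold different short motifs, which are shown because the genes moved together. Windows from 250 bases before to 50 after the transcription start were taken from RefSeq (GRCh38.p14) and matched 9412 of the tested genes by symbol. The cell cycle homology region (CHR), TTTGAA, a site known for binding the complexes that time mitotic genes, was searched on both strands. It was in 19 of 28 matched mitotic promoters (67.9%), 1 of 35 replication promoters (2.86%) and 9.08% of all matched promoters. The E2F motif TTTCCCGC, on both strands, was in 10 of 35 replication promoters (28.6%), 1 of 28 mitotic promoters (3.57%) and 2.72% of all. CCAAT, the NF-Y motif, was in 75% of mitotic and 57.1% of replication promoters and in 37.7% of all. A match is a string of letters and was not tested as a site. Below, capitals mark the CHR in PLK1 (chr16:23678639-23678938, plus strand) and CCNB2 (chr15:59104896-59105195, plus strand), which begins 29 bases before the start in each, and the E2F motif in PCNA (chr20:5126573-5126872, minus strand). CCNB2, cyclin B2, averaged 25.6 RPKM in shG9a and 12.5 in shsuz12, and PCNA, the sliding clamp, 70.7 in shG9a and 48.1 in shsuz12.
PLK1 promoter: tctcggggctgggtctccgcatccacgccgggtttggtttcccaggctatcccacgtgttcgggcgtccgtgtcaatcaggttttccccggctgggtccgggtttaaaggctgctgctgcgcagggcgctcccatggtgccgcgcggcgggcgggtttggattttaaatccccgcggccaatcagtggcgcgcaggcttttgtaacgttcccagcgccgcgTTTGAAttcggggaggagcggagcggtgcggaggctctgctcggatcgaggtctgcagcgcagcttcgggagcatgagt
CCNB2 promoter: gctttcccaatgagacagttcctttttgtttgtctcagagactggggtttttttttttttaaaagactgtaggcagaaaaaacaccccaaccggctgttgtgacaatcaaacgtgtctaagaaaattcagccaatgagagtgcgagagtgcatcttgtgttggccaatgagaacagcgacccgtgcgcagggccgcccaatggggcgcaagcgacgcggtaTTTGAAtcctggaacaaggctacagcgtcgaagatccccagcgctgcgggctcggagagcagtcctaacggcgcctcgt
PCNA promoter: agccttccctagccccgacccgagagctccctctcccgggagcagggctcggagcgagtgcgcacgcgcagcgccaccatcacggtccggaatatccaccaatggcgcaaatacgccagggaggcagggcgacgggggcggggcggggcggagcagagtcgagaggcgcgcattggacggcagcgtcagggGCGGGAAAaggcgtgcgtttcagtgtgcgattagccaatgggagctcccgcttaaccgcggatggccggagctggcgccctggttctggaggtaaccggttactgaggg

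Target genes of p53, the transcription factor that answers DNA damage and other stress, went the other way. Of 27, all tested, 24 were lower in shG9a than in shsuz12 (88.9%) and 0 higher, with a median of -0.80. FAS, a death receptor, had 2.21, 1.98 and 1.998 RPKM in shG9a, 9.05, 10.4 and 10.2 in shsuz12 and 3.03 to 3.46 in pLKO (-1.83 ± 0.09, adjusted p = 1.8e-09). SESN1, a sestrin that restrains growth signalling, had 8.94, 8.15 and 8.78 RPKM in shG9a, 28.3, 26.8 and 26.0 in shsuz12 and 36.1 to 40.0 in pLKO (-1.54 ± 0.07). BTG2, an antiproliferative gene, had 18.4, 18.5 and 16.7 RPKM in shG9a, 42.3, 48.6 and 47.3 in shsuz12 and 33.6 to 34.5 in pLKO (-1.32 ± 0.07). The 3 genes thus differed in where pLKO lay, above both knockdowns for SESN1 and between them for FAS and BTG2. CDKN1A, the cell cycle inhibitor p21, had 98.4, 102.0 and 98.0 RPKM in shG9a, 174.6, 194.7 and 192.8 in shsuz12 and 178.2 to 201.3 in pLKO (-0.91 ± 0.10, adjusted p = 3.4e-06), so shsuz12 overlapped pLKO. Against pLKO the list had 1 member higher and 23 lower in shG9a (median -0.66), and 12 higher and 3 lower in shsuz12 (median 0.18). The 3 members that did not pass were GDF15, PLK3 and RRM2B.

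**Figure D5:**
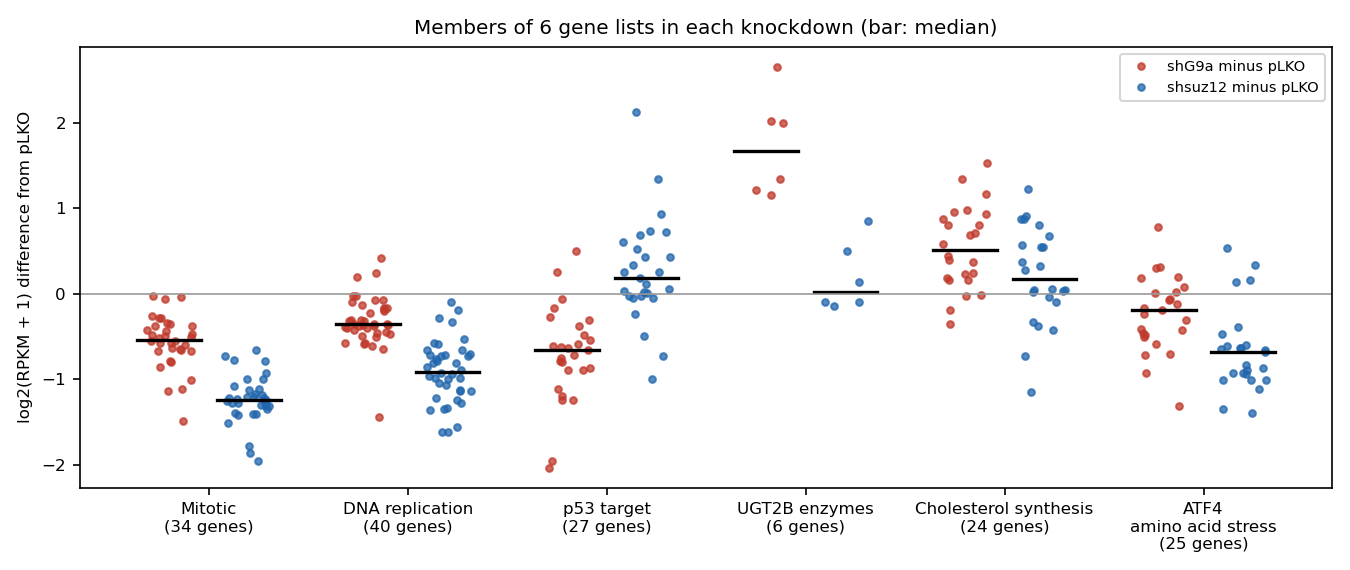
Log2(RPKM + 1) difference from pLKO of every tested member of 6 gene lists, in shG9a (red, left of each pair) and in shsuz12 (blue), with the median as a bar. The medians of mitotic and replication genes are -0.53 and -0.35 in shG9a and -1.24 and -0.91 in shsuz12, with single members such as GINS1 above 0 in shG9a; p53 target genes have medians of -0.66 in shG9a and 0.18 in shsuz12; UGT2B genes have medians of 1.67 in shG9a and 0.03 in shsuz12. Both columns use the same pLKO libraries.

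Other inhibitors of the cell cycle did not share a direction. CDKN2A, which encodes p16 and ARF and is a known PRC2 target, had 2.44, 2.44 and 2.65 RPKM in shG9a, 3.8, 4.70 and 4.92 in shsuz12 and 6.52 to 7.94 in pLKO (-0.64 ± 0.16, adjusted p = 0.0047). It was lowest in shG9a and highest in pLKO. CDKN2D, which encodes p19, was higher in shG9a by 0.97, at 6.61, 7.31 and 7.16 RPKM, against 2.80, 3.53 and 2.98 in shsuz12 and 5.67 to 7.68 in pLKO.

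UGT2B enzymes glucuronidate steroids, and the prostate uses UGT2B15 and UGT2B17 to inactivate androgens. All 6 tested of 7 were higher in shG9a than in shsuz12, with a median of 1.42. UGT2B11 had 80.4, 109.9 and 99.2 RPKM in shG9a, 21.5, 22.8 and 21.2 in shsuz12 and 20.7, 22.4 and 26.9 in pLKO (2.08 ± 0.11, adjusted p = 3.3e-09). UGT2B15 had 51.0, 62.3 and 64.9 RPKM in shG9a, 14.9, 16.96 and 16.7 in shsuz12 and 7.63, 9.46 and 8.64 in pLKO (1.81 ± 0.10). UGT2B17 had 43.5, 54.3 and 51.0 RPKM in shG9a, 15.5, 17.9 and 16.1 in shsuz12 and 11.2 to 11.8 in pLKO (1.53 ± 0.09). The shG9a libraries lay above those of shsuz12 and pLKO in each gene, while shsuz12 overlapped pLKO for UGT2B11 and lay above it for UGT2B15 and UGT2B17. UGT2B10 (1.29), UGT2B28 (1.30) and UGT2B7 (1.19) followed at lower levels, with 2.91, 15.7 and 2.17 RPKM in shG9a and 0.601, 5.80 and 0.385 in shsuz12. These genes are related copies on chromosome 4, so reads could have been split between members that are much alike, and the level of a single member is uncertain. UGT2B7 and UGT2B10 passed the filter only through the shG9a libraries, where they are high, and without any shG9a library, or with a filter on a mean of at least 3 RPKM, 4 of the family were called.

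The promoter windows of the UGT2B genes, shown because the family was higher as a whole, are poor in CpG. Their median ratio of observed to expected CpG was 0.126 over 4 matched promoters, against 0.851 over all 9412. UGT2B11 (chr4:69214699-69214998) and UGT2B15 (chr4:68670603-68670902), both on the minus strand, have 33% and 30.3% GC and 70.6% identity over their alignment.
UGT2B11 promoter: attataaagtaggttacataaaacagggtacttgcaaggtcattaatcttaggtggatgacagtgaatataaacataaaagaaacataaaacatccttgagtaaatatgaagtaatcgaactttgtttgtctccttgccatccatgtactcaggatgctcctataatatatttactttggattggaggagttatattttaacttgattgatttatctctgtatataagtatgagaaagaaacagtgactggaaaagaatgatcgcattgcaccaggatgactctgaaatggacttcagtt
UGT2B15 promoter: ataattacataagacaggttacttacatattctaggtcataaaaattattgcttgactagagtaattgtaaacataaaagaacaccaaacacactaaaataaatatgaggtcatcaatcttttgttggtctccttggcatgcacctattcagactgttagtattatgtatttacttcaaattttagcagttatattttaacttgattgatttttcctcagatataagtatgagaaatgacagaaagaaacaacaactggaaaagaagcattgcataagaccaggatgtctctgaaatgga

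Androgen-responsive genes had no common direction between the knockdowns. Of 30 tested, 12 were higher and 10 lower in shG9a than in shsuz12, with a median of 0.04. Against pLKO, 7 were higher and 17 lower in shG9a (median -0.34), and 8 were higher and 17 lower in shsuz12 (median -0.47). SLC45A3, a luminal prostate transporter, had 39.5, 44.7 and 41.5 RPKM in shG9a, 98.4, 116.7 and 109.8 in shsuz12 and 63.5 to 81.6 in pLKO (-1.35 ± 0.09). KLK2, a kallikrein protease, had 30.3, 30.2 and 33.0 RPKM in shG9a, 61.5, 59.1 and 61.6 in shsuz12 and 88.4 to 93.1 in pLKO (-0.94 ± 0.11). ELL2 and ACSL3, a fatty acid activating enzyme (1.19 ± 0.09), were on the other side, ACSL3 with 123.7, 139.8 and 133.5 RPKM in shG9a, 56.4, 57.8 and 57.8 in shsuz12 and 75.2 to 84.8 in pLKO. In the luminal marker list 5 of 18 were higher and 9 lower, and the keratins KRT8 (0.48) and KRT18 (0.56) were among the higher ones.

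Genes of cholesterol synthesis were more often higher than lower in shG9a, 13 against 1 of 24, with a median of 0.25. INSIG1, which retains the sterol-sensing SREBP complex in the endoplasmic reticulum, had 65.2, 68.0 and 67.2 RPKM in shG9a, 14.2, 15.8 and 15.2 in shsuz12 and 30.6 to 37.4 in pLKO (2.08 ± 0.08). FDFT1, squalene synthase, had 132.9, 132.2 and 131.2 RPKM in shG9a, 59.7, 58.8 and 59.4 in shsuz12 and 53.9 to 63.5 in pLKO (1.14 ± 0.07). The next enzyme, squalene epoxidase (SQLE), had 32.3, 34.3 and 33.1 RPKM in shG9a, 20.0, 19 and 18.8 in shsuz12 and 18.4 to 18.99 in pLKO (0.76 ± 0.06). FDFT1 overlapped pLKO in shsuz12 and lay above it in shG9a, while INSIG1 was on either side of pLKO. SC5D, a late desaturase, was the exception, with 7.46, 8.42 and 8.79 RPKM in shG9a, 24.0, 23.7 and 23.2 in shsuz12 and 8.11 to 10.3 in pLKO (-1.42 ± 0.08). Against pLKO 15 members were higher and 1 lower in shG9a, and 11 were higher and 5 lower in shsuz12.

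For fatty acid synthesis the counts were 8 higher and 2 lower of 17. FASN, fatty acid synthase, had 706.9, 656.1 and 646.8 RPKM in shG9a, 322.5, 282.8 and 310.1 in shsuz12 and 278.2 to 377.1 in pLKO (1.13 ± 0.12, adjusted p = 2.5e-06). FADS2, a desaturase, had 382.0, 442.9 and 416.4 RPKM in shG9a, 186.1, 209.9 and 208.3 in shsuz12 and 156.3 to 200.1 in pLKO (1.03 ± 0.10). In both, shG9a was higher than the other groups, which overlapped each other. ELOVL6, an elongase, had another order, with 8.57, 7.89 and 8.02 RPKM in shG9a, 2.97, 2.57 and 2.77 in shsuz12 and 11.5 to 13.4 in pLKO (1.28 ± 0.08).

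Genes of the ATF4 response, by which cells short of amino acids make more transporters, tRNA synthetases and one-carbon enzymes, were lower in shsuz12. Of 25 tested, 16 were higher in shG9a and 1 lower, with a median of 0.60; against pLKO 4 were higher and 11 lower in shG9a, and 2 were higher and 21 lower in shsuz12. MTHFD2, of mitochondrial one-carbon metabolism, had 50.4, 52.98 and 50.3 RPKM in shG9a, 29.2, 29 and 25.7 in shsuz12 and 53.7 to 62.0 in pLKO (0.85 ± 0.08). GARS, the glycyl-tRNA synthetase, had 69.0, 66.7 and 64.7 RPKM in shG9a, 39.3, 36.9 and 36.4 in shsuz12 and 69.1 to 75.6 in pLKO (0.82 ± 0.06). XPOT, which exports tRNA, differed by 1.05 and ATF4 mRNA itself by 0.88, with 106 RPKM in shG9a, 57.1 in shsuz12 and 106 in pLKO. The member that was lower, SESN2 (-0.93), is also a p53 target. Of 21 genes of the unfolded protein response 10 were higher and 4 lower; the count of higher genes was 6 without shG9a replicate 2 or without shsuz12 replicate 1.

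Of 17 tested interferon-stimulated genes 12 were higher in shG9a than in shsuz12 and 2 lower, at low levels. IFIH1, a sensor of double-stranded RNA, had 1.33, 1.55 and 1.51 RPKM in shG9a, 0.488, 0.596 and 0.392 in shsuz12 and 1.48 to 1.67 in pLKO (0.72 ± 0.10, adjusted p = 4e-05). DDX58, which encodes the sensor RIG-I, had 1.84, 1.84 and 1.85 RPKM in shG9a, 0.728, 0.684 and 0.716 in shsuz12 and 0.970 to 1.52 in pLKO (0.73 ± 0.10). OAS3 (0.82) and PARP9 (0.60) differed alike. IFIH1, DDX58, IFIT5 and IFI44 passed the filter through the shG9a libraries alone, where they are high, so these 4 of the 12 could hardly have been called lower. The shsuz12 libraries were the low ones in the 4 genes with values, and against pLKO 11 members were lower in shsuz12 and 2 in shG9a. The count of 12 became 6 without shG9a replicate 1 or 2 and 4 with a filter on a mean of at least 3 RPKM, and 18 of the 35 listed genes were below the filter. NLRC5, the activator of MHC class I genes, was instead high in shG9a, at 2.50, 2.31 and 2.58 RPKM, against 0.499, 0.462 and 0.544 in shsuz12 and 0.408 to 0.554 in pLKO (1.21 ± 0.08). In the MHC class I list 5 of 11 were higher and 1 lower, NLRC5 and HLA-E among them having passed the filter through shG9a alone, and the 5 became 3 without any of the shG9a libraries in turn.

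Most genes of the developmental and tissue-restricted lists were too low to test. Of 39 HOX genes 9 passed the filter, of 76 other developmental transcription factors 25, of 50 neuronal genes 14, of 53 clustered protocadherins 7, of 40 cancer testis and germline genes 11 and of 55 keratins 5. Among the tested developmental factors 5 were higher and 10 lower in shG9a, and the lower count was 5 under the filter on a mean of at least 3 RPKM. GATA6 and OTX1, called lower, passed the filter through the shsuz12 libraries alone, and DLX2, called higher, through the shG9a libraries alone. SOX9 had 2.74, 2.51 and 2.38 RPKM in shG9a, 5.55, 5.26 and 5.87 in shsuz12 and 4.76 to 5.83 in pLKO (-0.89 ± 0.10), so it was low in shG9a. IRX2, a homeobox gene, was instead high in shsuz12, with 2.21, 2.78 and 2.01 RPKM in shG9a, 4.56, 5.32 and 5.57 in shsuz12 and 1.01 to 1.73 in pLKO (-0.89 ± 0.14). HOXC6 (-0.45) and HOXC13 (-0.51) were lower in shG9a, HOXA10 (0.71) was higher, and HOXB13, a prostate homeobox gene, had 55.1 RPKM in shG9a, 70.8 in shsuz12 and 126 in pLKO (-0.36).

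Several neuronal genes were high in shsuz12 cells. MAP2, a microtubule protein of dendrites, had 1.15, 0.935 and 0.929 RPKM in shG9a, 6.71, 6.75 and 5.51 in shsuz12 and 1.62 to 1.79 in pLKO (-1.87 ± 0.12, adjusted p = 1.5e-08). SYT4, a synaptotagmin of secretory vesicles, had 189.0, 201.2 and 207.5 RPKM in shG9a, 446.8, 452.8 and 427.9 in shsuz12 and 188.3 to 231.0 in pLKO (-1.15 ± 0.09). SYP, synaptophysin, had 1.54, 1.84 and 2.15 RPKM in shG9a, 4.71, 4.86 and 5.05 in shsuz12 and 0.5995 to 0.748 in pLKO (-1.05 ± 0.09). GRIN1, a glutamate receptor subunit, was on the other side, with 7.14, 6.14 and 6.72 RPKM in shG9a and 2.08, 1.85 and 2.69 in shsuz12 (1.26 ± 0.10). In all, 3 of 14 tested neuronal genes were higher in shG9a and 6 lower. BSN, 1 of the 6, passed the filter through the shsuz12 libraries alone. The neuroendocrine regulator INSM1 was listed at 0 in all libraries of shG9a, shsuz12 and pLKO. The meiotic gene SYCP3 (-1.32) was high in shsuz12 as well, at 6.75 RPKM, against 2.16 in shG9a.

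Imprinted genes were 6 higher and 2 lower of 12 tested. DIO3, which inactivates thyroid hormone, had 8.91, 10.1 and 9.72 RPKM in shG9a, 1.57, 2.39 and 2.33 in shsuz12 and 0.449 to 0.657 in pLKO (1.78 ± 0.12). GNAS, the stimulatory G protein subunit, had 91.9, 95.1 and 90.7 RPKM in shG9a, 36.1, 35.9 and 35.7 in shsuz12 and 86.6 to 98.9 in pLKO (1.34 ± 0.08). GNAS was low in shsuz12, while shG9a overlapped pLKO. PHLDA2 (1.56) had the same form, and UBE3A, a ubiquitin ligase (1.26), was lowest in shsuz12 and also below pLKO in shG9a (adjusted p = 0.016). DIO3 lay above pLKO in both knockdowns and highest in shG9a.

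Signalling and surface genes were mixed. JAG1, a Notch ligand, had 5.79, 5.67 and 6.04 RPKM in shG9a, 23.8, 25.6 and 23.9 in shsuz12 and 24.3 to 27.1 in pLKO (-1.90 ± 0.12), and RBPJ, the DNA-binding partner of Notch, was lower by 0.72. NOTCH3, a receptor, was higher by 0.75, and the list had 4 higher and 7 lower of 16. SDC4, a syndecan, had 70.0, 77.9 and 78.3 RPKM in shG9a, 22.3, 27.6 and 25.9 in shsuz12 and 9.40 to 10.9 in pLKO (1.54 ± 0.09), whereas 6 of the 10 tested syndecans and glypicans were lower, among them GPC1 (-0.85), SDC2 (-0.88) and SDC3 (-0.59). With a filter on a mean of at least 3 RPKM 3 were lower. GPC3, 1 of the 6, passed the filter through the shsuz12 libraries alone. SLC30A4, a zinc exporter, had 13.0, 10.9 and 10.8 RPKM in shG9a, 57.4, 49.3 and 48.7 in shsuz12 and 53.7 to 61.3 in pLKO (-2.07 ± 0.22), while the zinc-binding metallothioneins MT1X (1.38), MT1G (1.25) and MT2A (1.05) were higher. MT1X had 56.4, 55.0 and 53.9 RPKM in shG9a, 21.2, 19.4 and 21.2 in shsuz12 and 52.3 to 61.7 in pLKO. Of the 3 groups, shG9a was the low one for JAG1 and SLC30A4 and shsuz12 for MT1X, and SDC4 was above pLKO in both knockdowns. Of 13 YAP and TEAD target genes 0 were higher and 5 lower, with GADD45A (-1.67) the largest. CYR61 (-0.64) was next, so GADD45A was not typical of the list. The 5 became 3 without shG9a replicate 1 or 3, or without shsuz12 replicate 3.

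Among clustered histone genes 14 of 31 tested were lower in shG9a and 1 higher, with a median of -0.51. HIST1H1C, a linker histone, had 36.4, 33.0 and 35.7 RPKM in shG9a, 87.5, 99.1 and 96.7 in shsuz12 and 72.2 to 87.3 in pLKO (-1.40 ± 0.13). Most histone genes are near-identical copies and 42 of the 73 listed were below the filter. HIST1H4D, HIST1H4I, HIST1H2AI and HIST1H3J passed it through the shsuz12 libraries alone, and 3 of these 4 were called lower. Under the alternatives the lower count ran from 11 to 17 and the higher count from 0 to 5. Mitochondrial ribosomal protein genes were 31 higher and 1 lower of 77, with MRPL45 at 14.9, 16.3 and 15.9 RPKM in shG9a, 6.56, 5.55 and 5.82 in shsuz12 and 14.1 to 14.9 in pLKO (1.26 ± 0.10). MRPL45 was not typical in shG9a, where 2 members were higher and 32 lower against pLKO (median -0.22). In shsuz12 1 member was higher and 58 were lower against pLKO (median -0.45). For nuclear-encoded respiratory chain genes 13 of 77 were higher and 3 lower, but a model of the 6 libraries with a replicate term gave 37 higher and 13 lower, and without shG9a replicate 2 or shsuz12 replicate 1 or 3 the higher count was 8, so no direction is given for them. Cytosolic ribosomal protein genes were 3 higher and 14 lower of 83, but the lower count was 61 in a model of the 6 libraries with a replicate term and 6 without shG9a replicate 1, so these counts show no stable direction. The 393 zinc finger genes named ZNF had 79 higher and 44 lower, 20.1% and 11.2%, both below the shares of all genes.

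The called genes also differed in short words of their 3′ UTRs. The longest 3′ UTR of basic protein-coding transcripts in GENCODE v29 (GRCh38) was read for 10933 tested genes. TTTAACA, a 7-base word known from earlier results of these data, was present in 15.3% of the genes higher in shG9a, 30.6% of the lower and 19.3% of those not called. AAATGAA, a word picked after the calls had been seen, was present in 40.5% of the higher, 27.9% of the lower and 26.4% of those not called. Among genes that differed at least 2-fold, the shares were 19% of the higher and 43.6% of the lower for TTTAACA, and 64.8% of the higher and 36.8% of the lower for AAATGAA. Genes with TTTAACA alone (1034) had medians against pLKO of -0.141 in shG9a and -0.04 in shsuz12, and genes with AAATGAA alone (2140) had 0.013 in shG9a and -0.165 in shsuz12. The 6545 genes with neither word had -0.04 in shG9a and -0.066 in shsuz12. Carriers had longer 3′ UTRs, with medians of 2094 and 2240 bases, against 791 for genes with neither word. Of the 14 leading genes that were higher, 11 held AAATGAA and 0 TTTAACA; of the 14 that were lower, 7 held TTTAACA and 4 AAATGAA.

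Sites in the 3′ UTRs of leading genes are shown with their flanking bases: PPP3CA (chr4:101025394-101025423), SOCS2 (chr12:93575305-93575334) and ALDH1A3 (chr15:100915626-100915655) for TTTAACA, and KIF5B (chr10:32010612-32010641), IQGAP2 (chr5:76707799-76707828) and TFRC (chr3:196049694-196049723) for AAATGAA. All are in mRNA sense, with the word in capitals, from GENCODE transcripts on GRCh38; PPP3CA, KIF5B and TFRC are on the minus strand and the others on the plus strand.
PPP3CA: catcaaacattTTTAACAaaatgatgtaca
SOCS2: tctaatttaaaTTTAACAgcttgaagaggt
ALDH1A3: ctgtaattcgcTTTAACAaattacgcattt
KIF5B: taatattagtaAAATGAAttaagatattat
IQGAP2: ttgtgcaattcAAATGAAgtttttataagt
TFRC: cacacgtacttAAATGAAagcatgtggcat

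Small RNAs can lower other transcripts through short matches in their 3′ UTRs, and the part of such matches in these differences was not tested. Among list members whose 3′ UTR holds neither word, the counts were 23 higher and 0 lower of 25 mitotic genes, 27 higher and 0 lower of 33 replication genes, 0 higher and 14 lower of 16 p53 target genes, 6 higher and 0 lower of 6 UGT2B enzymes, 7 higher and 0 lower of 14 cholesterol genes and 12 higher and 1 lower of 18 ATF4 genes. Over all 6545 genes with neither word, 25.5% were higher and 20% lower. These lists were picked from many, and not every list kept its direction. The neuronal list had 3 higher and 0 lower of 5 members with neither word, against 3 higher and 6 lower of its 14 tested. INSIG1, TFRC, KIF5B and C2orf54 hold AAATGAA, and PPP3CA and SI hold TTTAACA. SUZ12, MSMB, UGT2B11, LRRN1, F5, RLN1, CEL, AIDA and ACPP hold neither word in this 3′ UTR. Coding sequence was read for the targeted genes only, where SUZ12 holds AAATGAA at 4 places and EHMT2 holds TTTAACA at 1 place. Whether these places match a hairpin was not tested.

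Promoters of the called genes differed little in base composition, apart from those with the largest falls. The median ratio of observed to expected CpG was 0.866 for genes higher in shG9a, 0.832 for genes lower and 0.851 for all. A ratio under 0.6 was found in 29.9% of the genes at least 2-fold lower, 19.5% of those at least 2-fold higher and 15.2% of all matched promoters. SI and UGT2B15 have windows with no CpG at all.

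Markers of other cell types were low and gave few calls. Summed levels were 2.34 to 2.48 RPKM in shG9a and 0.955 to 1.07 in shsuz12 for 4 endothelial markers, with KDR listed at 0 in shG9a, and VWF was called higher in shG9a (0.77, adjusted p = 4.6e-06). The 6 immune markers summed to 2.60 to 3.35 RPKM in shG9a and 2.15 to 2.77 in shsuz12, with PTPRC and CD3E listed at 0 in both. The 6 fibroblast markers summed to 5.34 to 6.18 RPKM in shG9a and 4.99 to 5.50 in shsuz12, with DCN listed at 0 in both. The single fibroblast marker that passed the filter, COL1A1 (0.27, adjusted p = 0.034), did not pass under several alternatives, such as median ratio scaling (adjusted p = 0.069).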

How the data were processed

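RNA of 15 LNCaP libraries, 3 in each of 5 groups, was sequenced. The authors deposited 1 table of RPKM values per gene; STAR and hg38 are named in the submitters' processing notes, with no version, and no counter or annotation is named there. Of 26475 names, 32 had no values, 28 were turned into dates and 2 stood on 2 lines. Read depth was worked out from the RPKM of a single read; 92.7 to 94.8% of low values, under 50 reads, came within 0.05 of whole reads, a figure that is partly circular.

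A gene was tested with at least 1 RPKM in at least 3 of the 6 shG9a and shsuz12 libraries. Values were taken as log2(RPKM + 1), which understates changes of low genes, and a group model over all 15 libraries was fitted by limma 3.58.1 (R 4.3.3) with a mean-dependent spread. P-values were adjusted by Benjamini-Hochberg over all 12111 genes, with a threshold of 0.05. The procedure was tested on simulated data. Tables were handled in Python 3.11.15.

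Genes named were the targets and their partners, the 14 largest differences each way among called genes whose libraries did not overlap and with a mean of at least 2 RPKM in the higher group (clone and pseudogene names skipped), and, from each list, the 4 called members of smallest p. Members and lists were chosen with earlier results of these data known. Alternatives were other pseudocounts, filters, scalings, model libraries and a replicate term, and leaving out each library. Promoter windows came from RefSeq (GRCh38.p14) and 3′ UTRs from GENCODE v29 (GRCh38).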

Additional observations from a re-analysis of the deposited data

Results flagged for a closer look

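Some of the genes with the largest differences lay on opposite sides of pLKO in the 2 knockdowns. They were drawn from the leading genes, which had to pass limma between the knockdowns (adjusted p under 0.05) to be listed. Passing that test is therefore no separate support. Choosing large differences between the knockdowns also favours genes on opposite sides of pLKO. Values are log2(RPKM + 1) differences, shG9a minus shsuz12 first.

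Above pLKO in shG9a and below it in shsuz12, the knockdowns differed for NCEH1 by 2.41 (1.52 in shG9a and -0.88 in shsuz12 against pLKO), IQGAP2 by 2.24 (0.71 in shG9a and -1.53 in shsuz12 against pLKO), ELL2 by 2.21 (0.53 in shG9a and -1.68 in shsuz12 against pLKO), MAT2B by 2.15 (0.31 in shG9a and -1.84 in shsuz12 against pLKO), EAF1 by 2.13 (0.41 in shG9a and -1.72 in shsuz12 against pLKO), CTNNA1 by 2.11 (0.53 in shG9a and -1.58 in shsuz12 against pLKO), APIP by 2.08 (0.41 in shG9a and -1.67 in shsuz12 against pLKO) and INSIG1 by 2.08 (0.93 in shG9a and -1.15 in shsuz12 against pLKO).

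Below pLKO in shG9a and above it in shsuz12, the knockdowns differed for LRRN1 by -3.41 (-1.02 in shG9a and 2.39 in shsuz12 against pLKO), RFX6 by -3.24 (-1.88 in shG9a and 1.36 in shsuz12 against pLKO), F5 by -2.85 (-0.58 in shG9a and 2.27 in shsuz12 against pLKO), ZMAT3 by -2.67 (-1.95 in shG9a and 0.72 in shsuz12 against pLKO), RLN1 by -2.48 (-0.63 in shG9a and 1.86 in shsuz12 against pLKO). They also differed for SOCS2 by -2.33 (-0.88 in shG9a and 1.46 in shsuz12 against pLKO), AIDA by -2.29 (-1.90 in shG9a and 0.39 in shsuz12 against pLKO), ACPP by -2.28 (-1.34 in shG9a and 0.94 in shsuz12 against pLKO), ALDH1A3 by -2.25 (-1.37 in shG9a and 0.88 in shsuz12 against pLKO), ATP11A by -2.17 (-1.64 in shG9a and 0.53 in shsuz12 against pLKO) and HS3ST1 by -2.12 (-0.84 in shG9a and 1.29 in shsuz12 against pLKO).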

How the results depend on the processing

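The 3247 higher and 2505 lower calls kept within 1.5 times under all alternatives that were run, and 0 genes were called in the opposite direction in any. Counts of genes that differed at least 2-fold depended on the scale: with a pseudocount of 0.1 they were 449 higher and 435 lower, and from TPM 389 higher and 404 lower, against 262 and 251. Leaving out 1 library at a time gave 2615 to 2927 higher and 1958 to 2221 lower, 238 to 288 and 205 to 254 of them at least 2-fold, and 453 to 493 called list members, against 556. The 6 libraries alone gave 3940 higher and 2968 lower, and median ratio scaling 2884 and 2867. Correlations of deviations between shG9a and shsuz12 libraries were 0.157, 0.124 and 0.022 for the same replicate numbers. For unlike numbers they ran from -0.133 to 0.023. Libraries numbered 1 and 2 thus shared a little of their deviations and those numbered 3 did not. The labels do not say what a replicate number shares, and the main model held no replicate term. A replicate block gave 3169 higher and 2427 lower with 15 libraries and 4196 and 3209 with the 6 alone. C10orf12 passed with the 6 libraries alone (adjusted p = 0.0027). Precision is limited by 3 libraries a group and, at 1 RPKM, by the low read number per gene.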
